A study of Rattus norvegicus with 6 samples.

Results

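The cathepsins and legumain are the main proteases of the lysosome, and 9 of the 10 genes chosen for this description were measured among 18166 named genes on 6 arrays. The genes were taken by name: Ctsa, Ctsb, Ctsc, Ctsd, Ctsh, Ctsk, Ctsl, Ctss, Ctsz and Lgmn. Each measured member had 1 probe set with a single gene symbol, and Ctsz, which was paired with no such probe set, was not analysed here. The arrays held total RNA from the epididymis, the duct in which sperm mature, of Sprague-Dawley rats aged 48 days. A magnetic method had divided the cells into a basal fraction (3 arrays), meant to hold small epithelial cells lying against the basement membrane of the tubule, and a non-basal fraction (3 arrays) with the other cells of the tissue. No treatment or genetic change was named for either fraction. The labels name 3 rats without tying an array to an animal, so the p-values reflect the variation among these samples alone, which may be technical.

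Cathepsins are made as inactive precursors in the secretory pathway, tagged with mannose 6-phosphate, and carried by receptors to the acidic lysosome, where they are activated and degrade proteins. Ctsb, Ctsc, Ctsh, Ctsk, Ctsl and Ctss encode cysteine proteases of the papain family, Ctsd encodes an aspartic protease, Ctsa a serine carboxypeptidase, and Lgmn an asparagine-specific endopeptidase that trims the precursors of other cathepsins. In the epididymis, such enzymes serve turnover inside epithelial cells and phagocytes, and some are also released outside the cell.

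Markers of cell types were set side by side to check the fractions against their labels, and 2 arrays stood apart. All 9 measured basal epithelial markers were higher in the basal fraction (median log2 difference 2.82), among them Tp63 and Krt14. All 12 fibroblast markers were lower (median -3.91), with mean log2 levels of 7.38 to 9.04 on the basal arrays and 11.18 to 12.06 on the non-basal arrays, and basal replicate 3 had the highest basal value. Of these 12, 6 were lower when basal replicate 2 or either of non-basal replicates 2 and 3 was left out. Macrophage and dendritic cell markers numbered 18, of which 2 were lower. Of this list 11.1% were thus called, beside 14.9% of all genes. The mean level of these markers was 7.83 to 8.29 on the basal arrays, against 7.95 on non-basal replicate 1 and 9.14 and 9.01 on non-basal replicates 2 and 3. Their number was 11 without non-basal replicate 1, 1 without basal replicate 3 and 0 without any 1 of the other 4 arrays. No marker was listed at 0, the lowest fibroblast value being 4.42 and the lowest macrophage value 5.74. In such fractions, fewer cells of a type and less RNA per cell cannot be told apart.

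Of the 9 measured members 3 were lower in the basal fraction, 0 were higher and 6 did not pass, and at an unadjusted p under 0.05 by limma 4 were lower and 0 higher, a threshold that 13.9% of all genes passed as lower, 16.1% as higher and 30% in either direction. The 3 were Ctsk, a collagen-degrading protease known from osteoclasts and fibroblasts, Ctsh, a protease that mainly removes single amino acids from the amino end, and Ctss, a protease of antigen-presenting cells that trims the invariant chain of MHC class II. Their levels were 5.37-fold, 2.03-fold and 1.66-fold lower. Over all 18166 genes, 7.14% were called lower, 7.71% higher and 14.9% in either direction (limma, Benjamini-Hochberg adjusted p under 0.05). The median log2 difference, basal minus non-basal, was -0.21 over the 9 members and 0.00343 over all genes. The fractions did not overlap for 4 members, the 3 called and Ctsb, nor for 32.9% of all genes. The basal values were the lower ones in these 4 members and in 15.3% of all genes.

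**Figure D1:**
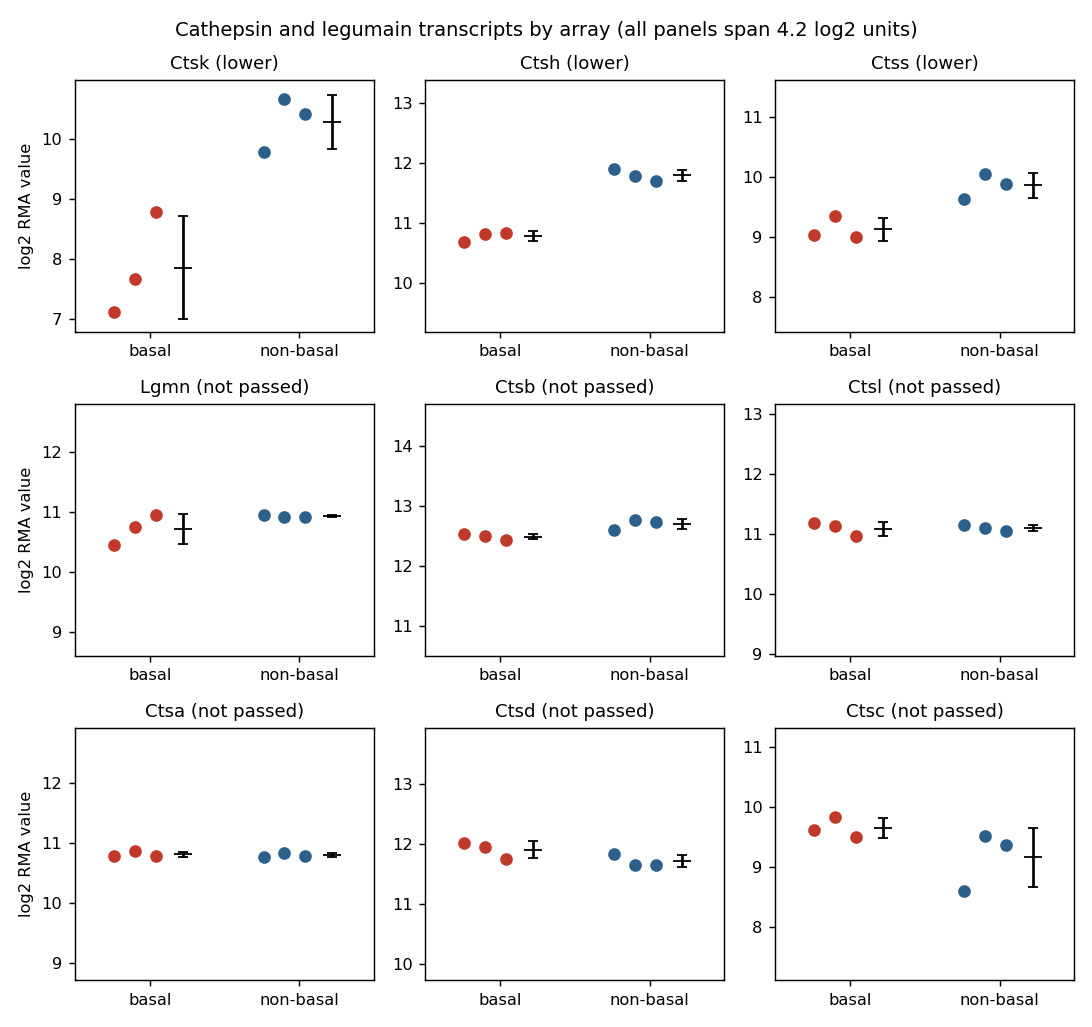
Log2 RMA values of the 9 measured members on each array, with the 3 basal arrays (red) left of the 3 non-basal arrays (blue) and a black mark for the mean and SD of each fraction. Ctsk, Ctsh and Ctss separate the fractions, from 7.11 to 8.79 against 9.77 to 10.66 for Ctsk, while Ctsa and Ctsl lie at nearly the same level in both.

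Ctsk had the largest difference of the members and also the largest SD among the basal arrays. Its log2 RMA values were 7.11, 7.66 and 8.79 on basal replicates 1 to 3, against 9.77, 10.66 and 10.41 on non-basal replicates 1 to 3. The fractions did not overlap, basal replicate 3 was the highest basal array and non-basal replicate 1 the lowest non-basal array. The basal arrays averaged 7.85 ± 0.853 and the non-basal arrays 10.28 ± 0.456 (SD, n = 3 each), and the log2 difference was -2.43 ± 0.458 (SE; 95% interval -3.54 to -1.31; limma adjusted p = 0.0203). Only 125 genes had a more negative difference. The adjusted p was 0.0666 without basal replicate 1 and 0.0965 without basal replicate 2. Leaving out non-basal replicate 2 gave 0.0834, and leaving out non-basal replicate 3 gave 0.0976. It was 0.00588 without both basal replicate 3 and non-basal replicate 1, where the difference was -3.15.

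Ctsh differed less than Ctsk but more evenly. It had 10.68, 10.82 and 10.83 on the basal arrays, against 11.89, 11.78 and 11.70 on the non-basal arrays, in log2 RMA units. The arrays of each fraction lay close together, and the fractions were far apart relative to that spread. The basal arrays averaged 10.77 ± 0.082 and the non-basal arrays 11.79 ± 0.094 (SD, n = 3 each), so that the log2 difference was -1.02 ± 0.08 (SE; 95% interval -1.21 to -0.82; limma adjusted p = 0.0022). The call held in all 6 fits with 1 array left out, with adjusted p of 0.00349 to 0.0211.

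Ctss had 9.03, 9.35 and 8.99 on the basal arrays, against 9.63, 10.04 and 9.89 on the non-basal arrays. No basal value reached the lowest non-basal one, that of non-basal replicate 1. The log2 difference was -0.73 ± 0.144 (SE; 95% interval -1.08 to -0.38; limma adjusted p = 0.023), with averages of 9.12 ± 0.195 for the basal and 9.85 ± 0.206 for the non-basal arrays (SD, n = 3 each). This call held in 2 of 6 fits with 1 array left out. The adjusted p was 0.097 without basal replicate 1, 0.0531 without basal replicate 3. Leaving out non-basal replicate 2 gave 0.0794, and leaving out non-basal replicate 3 gave 0.102.

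The other 6 members did not pass, and of these Ctsc had the widest 95% interval and Ctsa the narrowest. Ctsb, a broadly expressed lysosomal protease, had 12.53, 12.50 and 12.44 on the basal arrays, against 12.61, 12.77 and 12.74 on the non-basal arrays. The fractions did not overlap, but the difference was only -0.21 ± 0.072 (SE; 95% interval -0.39 to -0.04; limma adjusted p = 0.11). Ctsl, a broadly expressed endopeptidase, had 11.18, 11.13 and 10.96 on the basal arrays, against 11.15, 11.09 and 11.05 on the non-basal arrays. The values of Ctsl overlapped fully, the 95% interval of the log2 difference was -0.20 to 0.19, and its sign changed without basal replicate 3 (0.06) or non-basal replicate 1 (0.02).

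Ctsa, whose product protects lysosomal galactosidase and neuraminidase from breakdown, had 10.78, 10.86 and 10.79 on the basal arrays, against 10.77, 10.83 and 10.79 on the non-basal arrays. Its 95% interval of -0.13 to 0.16 was centred close to 0, and the sign of its difference of 0.02 turned after quantile normalization (-0.05). Ctsd, the major aspartic protease of the lysosome, had 12.01, 11.95 and 11.75 on the basal arrays, against 11.83, 11.65 and 11.65 on the non-basal arrays. Basal replicate 3 lay below non-basal replicate 1, and the difference of 0.20 ± 0.097 (SE) had an adjusted p of 0.235 by limma. Without basal replicate 3 and non-basal replicate 1 together the difference was 0.33 and the adjusted p 0.0257.

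Ctsc, which activates the serine proteases of cytotoxic and myeloid cells, had 9.61, 9.83 and 9.50 on the basal arrays, against 8.60, 9.51 and 9.37 on the non-basal arrays. Non-basal replicate 1 was far below the other 5 arrays, which overlapped between the fractions. The difference was 0.48 ± 0.25 (SE; 95% interval -0.13 to 1.09; limma adjusted p = 0.253), and 0.20 without non-basal replicate 1. Lgmn had 10.46, 10.75 and 10.95 on the basal arrays, against 10.96, 10.92 and 10.92 on the non-basal arrays. The 3 non-basal values were nearly equal, and basal replicate 3 reached their level. The difference was -0.22 ± 0.13 (SE; 95% interval -0.53 to 0.10; limma adjusted p = 0.319), and it was -0.33 without basal replicate 3 and -0.08 without basal replicate 1.

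The upstream sequences of the 3 members that were lower and of 2 that did not pass are shown because the sets differ in base composition. The 2 were Ctsd and Ctsl, with 22 and 24 CpG dinucleotides, the most of those searched that did not pass. Ctsa, Ctsc and Lgmn, whose sequences are not shown, had 13, 10 and 13. The sequences are the 250 bases before each gene's start from RefSeq, build GRCr8, written 5′ to 3′ on the strand of the gene. Capitals mark matches to 6 short motifs, searched on both strands: CACGTG, the core of the element bound by the lysosomal regulator TFEB, CATGTG, a related E-box, TGANTCA for AP-1, GGGCGG, the GC box, TATAAA, the TATA box, and GAGGAA, an ETS-type site.
Ctsh, chr8:99488506-99488755, plus strand: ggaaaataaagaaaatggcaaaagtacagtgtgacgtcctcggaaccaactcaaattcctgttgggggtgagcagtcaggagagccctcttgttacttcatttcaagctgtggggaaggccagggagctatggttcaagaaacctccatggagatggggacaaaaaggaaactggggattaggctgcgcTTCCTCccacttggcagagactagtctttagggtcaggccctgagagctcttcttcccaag
Ctsk, chr2:185747298-185747547, plus strand: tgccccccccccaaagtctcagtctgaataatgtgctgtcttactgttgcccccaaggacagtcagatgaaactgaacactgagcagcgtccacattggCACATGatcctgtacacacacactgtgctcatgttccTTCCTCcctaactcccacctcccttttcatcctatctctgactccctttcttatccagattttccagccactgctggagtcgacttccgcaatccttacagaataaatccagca
Ctss, chr2:185775146-185775395, plus strand: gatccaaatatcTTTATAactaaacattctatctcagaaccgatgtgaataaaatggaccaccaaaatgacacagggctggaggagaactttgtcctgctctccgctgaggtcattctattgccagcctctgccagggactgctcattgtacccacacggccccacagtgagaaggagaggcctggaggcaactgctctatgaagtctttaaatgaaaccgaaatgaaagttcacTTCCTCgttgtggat
Ctsd, chr1:206968822-206969071, minus strand: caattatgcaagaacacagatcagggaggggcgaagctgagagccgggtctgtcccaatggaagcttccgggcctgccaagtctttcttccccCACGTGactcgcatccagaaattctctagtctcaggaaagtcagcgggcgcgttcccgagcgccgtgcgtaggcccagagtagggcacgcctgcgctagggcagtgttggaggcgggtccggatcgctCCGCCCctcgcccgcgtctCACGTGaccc
Ctsl, chr17:769854-770103, plus strand: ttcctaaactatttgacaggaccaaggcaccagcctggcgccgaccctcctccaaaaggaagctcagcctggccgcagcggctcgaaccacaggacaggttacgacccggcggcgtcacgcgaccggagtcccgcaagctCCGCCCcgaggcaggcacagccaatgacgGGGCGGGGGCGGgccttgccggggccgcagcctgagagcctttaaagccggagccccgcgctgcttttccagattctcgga

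Upstream sequences were found for 8 of the 9 measured members, Ctsb having no entry. Ctsh, Ctsk and Ctss had 3, 3 and 5 CpG dinucleotides in the 250 bases and a GC content of 50.4%, 49.6% and 46.4%. The other 5 members, Ctsa, Ctsc, Ctsd, Ctsl and Lgmn, had 10 to 24 CpG dinucleotides and a GC content of 57.6% to 66.8%. The median over the promoters of 14564 measured genes was 12 CpG dinucleotides. Each of these 5 members held at least 1 GC box, GGGCGG, and none of Ctsh, Ctsk and Ctss did, while 30.5% of all 33469 promoters and 45.3% of those of measured genes held one. CACGTG was found in Ctsd alone of the 8, starting 157 and 10 bases before the gene start, and in 5.59% of all promoters. CATGTG was found in Ctsk alone (12.1% of all promoters), TATAAA in Ctss alone (12.9%), and TGANTCA in 0 of the 8 (6.34%). Among promoters of measured genes these shares were 9.15%, 11.3% and 5.64%. The TATAAA match of Ctss lay on the opposite strand and started 238 bases before the gene start. GAGGAA was found in Ctsa, Ctsc, Ctsh, Ctsk and Ctss and in 23.3% of all promoters. No match overlapped one of another motif. The split by CpG count was noticed after the differences were known, covers 8 genes and was not tested.

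**Figure D2:**
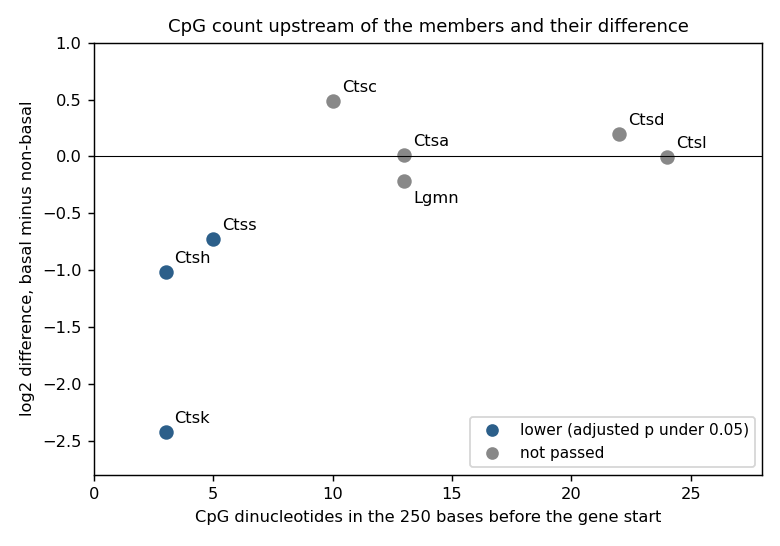
CpG dinucleotides in the 250 bases before the gene start (horizontal) against the log2 difference, basal minus non-basal (vertical), for 8 members, with the 3 that were lower in blue and the others in grey. Ctsh, Ctsk and Ctss have 3 to 5 CpG dinucleotides and the other 5 genes 10 to 24.

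Ctsk and Ctss lie near each other on chromosome 2 of the GRCr8 annotation, with a single annotated protein-coding locus between them, and no other members were neighbours in this sense. Both were lower in the basal fraction, but their values did not order the arrays alike. Basal replicate 3 had the highest basal value of Ctsk at 8.79, yet the lowest of Ctss at 8.99.

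The 3 members were set beside markers of cell types that the fractions could hold, as deviations of each array from the mean over the 6 arrays. Ctsk deviated by -1.95, -1.41 and -0.28 on basal replicates 1 to 3, against 0.71, 1.59 and 1.34 on non-basal replicates 1 to 3. The mean of the 12 fibroblast markers deviated by -2.52, -2.05 and -0.87 on the basal arrays, against 1.28, 2.16 and 2.01 on the non-basal arrays. Both placed the 6 arrays in the same order, but that order was not particular to fibroblast markers. The smooth muscle and pericyte marker mean had it too, at 8.18, 8.32 and 9.13 on the basal arrays, against 10.79, 11.07 and 10.99. So did the lymphocyte marker mean, at 6.09, 6.29 and 6.49 on the basal arrays, against 7.39, 8.25 and 8.11. The part of transcripts of any of these cell types in the Ctsk difference was not tested.

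Ctss deviated by -0.46, -0.14 and -0.50 on the basal arrays, against 0.15, 0.55 and 0.40 on the non-basal arrays. The mean of the 18 macrophage and dendritic cell markers deviated by -0.45, -0.06 and -0.52 on the basal arrays, against -0.41, 0.78 and 0.65 on the non-basal arrays. The marker mean of non-basal replicate 1 thus lay within the basal range, whereas Ctss on that array lay above every basal array. The lymphocyte marker mean, with 7 of 13 genes lower (11 without non-basal replicate 1), did separate the fractions, at 6.09 to 6.49 on the basal and 7.39 to 8.25 on the non-basal arrays. So did the fibroblast, smooth muscle and endothelial marker means. Basal replicate 3 had the highest basal value of each of these means, yet the lowest of Ctss. The part of transcripts of any of these cell types in the Ctss difference was not tested.

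Ctsh deviated by -0.60, -0.47 and -0.46 on the basal arrays, against 0.61, 0.50 and 0.42 on the non-basal arrays. The mean of the 11 principal cell markers, genes of the tall luminal cells, deviated by -0.49, -0.40 and 0.14 on the basal arrays, against 0.50, 0.08 and 0.17 on the non-basal arrays. Basal replicate 3 was within the non-basal range for these markers but not for Ctsh. Of the 11 markers 1 was lower (9.09% called, beside 14.9% of all genes), and 7 were without basal replicate 3. That count was 0 when 1 of basal replicates 1 and 2 or of non-basal replicates 2 and 3 was left out. The fractions separated for the smooth muscle and endothelial markers, at 8.18 to 9.13 and 6.90 to 7.41 on the basal arrays, against 10.79 to 11.07 and 8.79 to 8.89 on the non-basal arrays. The part of these cell types in the Ctsh difference was not tested.

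**Figure D3:**
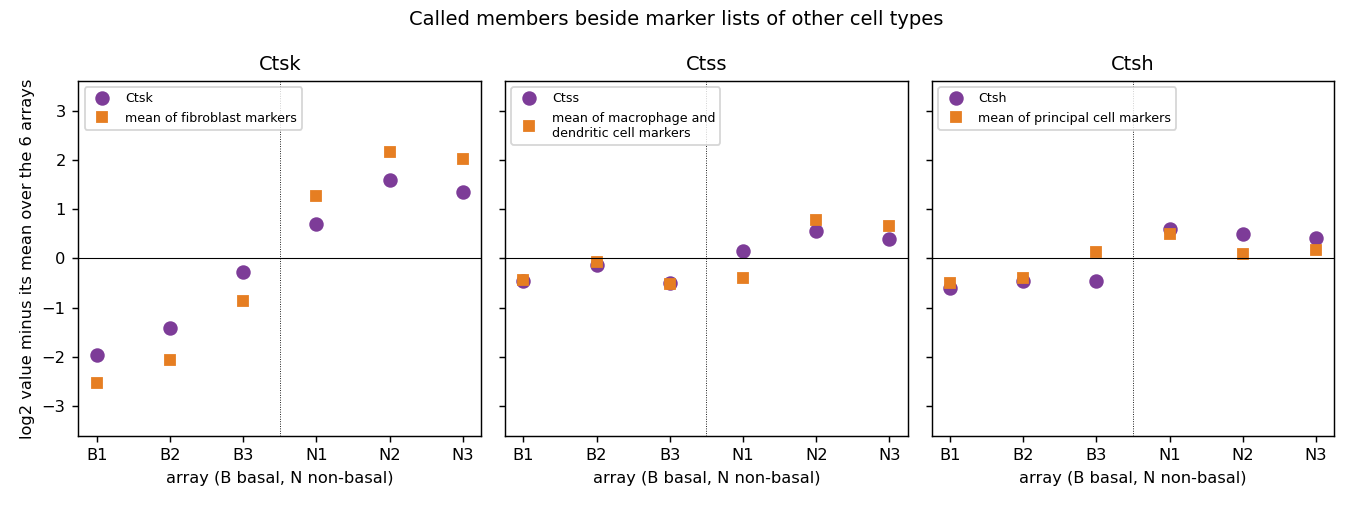
Deviation of Ctsk, Ctss and Ctsh (circles) and of the mean of a marker list (squares) from their own mean over the 6 arrays, in log2 units, with basal arrays (B1 to B3) left of non-basal arrays (N1 to N3). Ctsk and the fibroblast mean place the arrays in the same order, with Ctsk deviating less on every array (-0.28 against -0.87 on B3). Ctss lies above the macrophage mean on N1 (0.15 against -0.41), and Ctsh below the principal cell mean on B3 (-0.46 against 0.14).

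The genes whose profiles over the 6 arrays lay nearest to each called member, by Euclidean distance after subtraction of each gene's mean, were also found. Nearest to Ctsk were Prrx1, a homeobox gene of mesenchyme, Tmem100 and Clic2, at distances of 0.289, 0.345 and 0.36 log2 units and with differences of -2.47, -2.59 and -2.33. Nearest to Ctsh were the sodium-calcium exchanger gene Slc8a1, Dach2 and Gimap9, at distances of 0.12, 0.159 and 0.165. Nearest to Ctss were Sorcs2, the mitochondrial superoxide dismutase gene Sod2 and the neural cadherin gene Cdh2, at distances of 0.124, 0.14 and 0.144.

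Among 16 other measured cathepsins and close relatives, 1 was higher, 2 were lower and 13 missed the threshold (list median -0.11 on the log2 scale). Of this list 18.8% were called, beside 14.9% of all genes. Tinagl1, which encodes a secreted matrix protein with a cathepsin-like domain that lacks protease activity, had 12.38, 12.30 and 12.04 on the basal arrays, against 10.33, 10.57 and 10.62 on the non-basal arrays. Every basal array was far above every non-basal array, with a difference of 1.73 ± 0.123 (SE; limma adjusted p = 0.00206) that passed in all 6 fits with 1 array left out. Ctsf, a papain-family cysteine protease, had 7.93, 7.84 and 8.004 on the basal arrays, against 8.97, 9.34 and 9.14 on the non-basal arrays. The difference of -1.23 ± 0.11 (SE; limma adjusted p = 0.00266) also passed in all 6 fits. Scpep1, a serine carboxypeptidase related to Ctsa, had a difference of -1.28 ± 0.306 (SE; limma adjusted p = 0.0422), which passed in 1 of 6 fits, that without non-basal replicate 1. Ctsw, a cathepsin of cytotoxic lymphocytes, and the aspartic protease gene Ctse had differences of -0.98 and -0.90, with limma adjusted p of 0.0697 and 0.0961, and both passed without non-basal replicate 1 (0.00387 and 0.0149). The number lower was 4 without non-basal replicate 1, and 1 when any of basal replicates 1 and 2 or non-basal replicates 2 and 3 was left out.

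**Figure D4:**
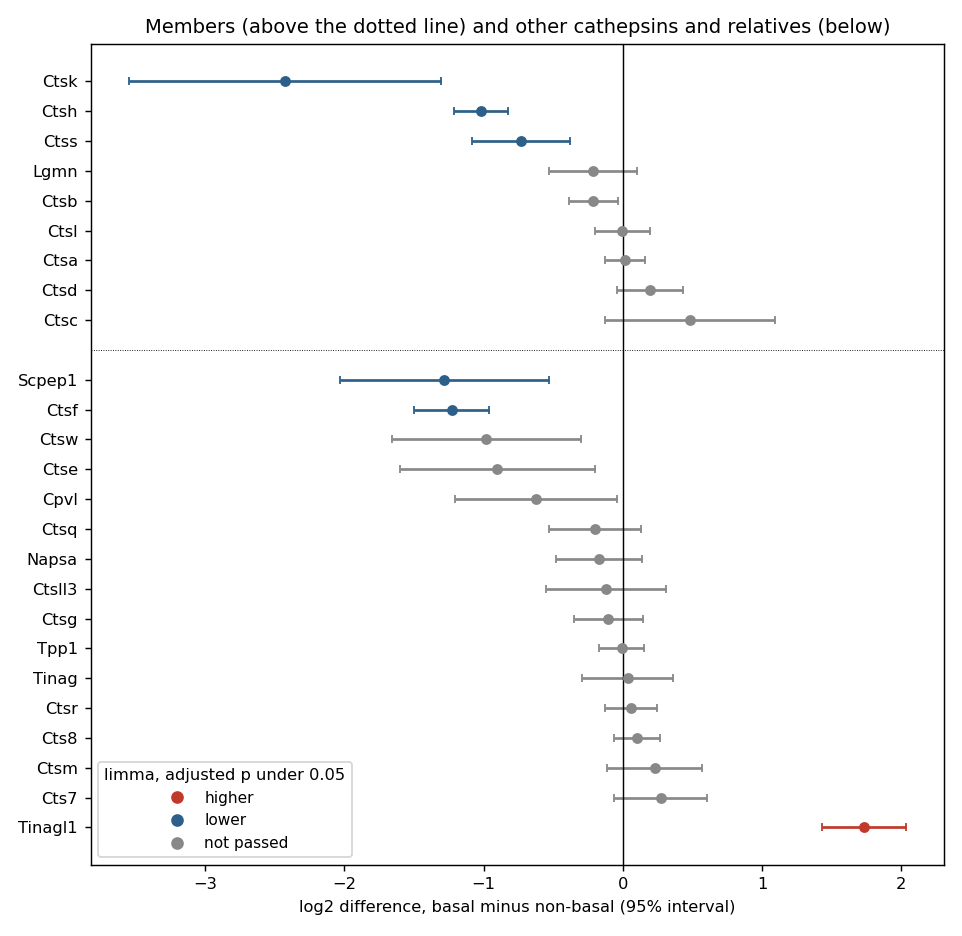
Log2 difference, basal minus non-basal, with 95% intervals for the 9 members (above the dotted line) and 16 other cathepsins and relatives (below), coloured by the limma call. Ctsk, Ctsh, Ctss, Scpep1 and Ctsf are the genes called lower, and Tinagl1 at 1.73 is the one gene called higher. Other genes also lie to the left of 0 without a call, among them Ctsb, Ctse, Ctsw and Cpvl with whole intervals below 0.

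Cystatins include tight-binding inhibitors of papain-family cathepsins. The list used here was of cystatin-type genes, whether or not their products inhibit cathepsins. The share of the list that was called was near that of all genes (12.5%, beside 14.9%). Of 16 measured cystatin-type genes 2 were higher, 0 were lower and 14 missed the threshold (list median 0.10 on the log2 scale), and at an unadjusted p under 0.05 by limma 3 were higher and 2 lower. Cst6, a secreted cystatin of squamous epithelia that also inhibits legumain, had 7.27, 7.34 and 6.92 on the basal arrays, against 6.26, 6.22 and 6.62 on the non-basal arrays. The Cst6 difference was 0.81 ± 0.158 (SE; limma adjusted p = 0.0226), and it passed in 2 of 6 fits with 1 array left out. Stfa2, a stefin, differed by 0.34 ± 0.075 (SE; limma adjusted p = 0.0345) at values of only 3.10 to 3.52, near the lower end of the scale, and passed in 1 of 6 fits. Kng1 and Cst7 had differences of 0.74 and -0.68, with limma adjusted p of 0.0611 and 0.102. Without 1 array, 0 or 1 of the list was higher, the number being 0 when basal replicate 2 or either of non-basal replicates 1 and 2 was left out, and 1 for the others. It was 1 lower without non-basal replicate 1.

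Of 18 genes of the machinery that sorts and activates lysosomal enzymes 2 were higher, 1 was lower and 15 missed the threshold (list median 0.09 on the log2 scale), so that 16.7% were called, near the share of all genes. Gnptab, the transferase that makes the mannose 6-phosphate tag, had 9.77, 9.68 and 9.35 on the basal arrays, against 8.05, 8.64 and 8.49 on the non-basal arrays. The Gnptab difference was 1.21 ± 0.185 (SE; limma adjusted p = 0.0103). Sorl1, a sorting receptor, was higher by 0.71 ± 0.115 (SE; limma adjusted p = 0.012). Lrp1, an endocytic receptor, was lower at -1.95 ± 0.22 (SE; limma adjusted p = 0.00434). With 1 array left out, Gnptab passed in 3 of 6 fits, Sorl1 in 4 and Lrp1 in all 6. Gga2, an adaptor for the tag receptors, had a difference of -0.56 (limma adjusted p = 0.0508). Neu1 and Glb1, which form a complex with the Ctsa product and were chosen after their values were seen, had differences of -0.73 and -0.67, with limma adjusted p of 0.0895 and 0.0697. The number higher was 5 without basal replicate 3, 1 without basal replicate 1, and 0 when basal replicate 2 was left out or non-basal replicate 3 was. The number lower was 3 without basal replicate 3.

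Of 23 genes listed as other lysosomal hydrolases, 1 was higher, 5 were lower and 17 missed the threshold (list median -0.16 on the log2 scale). The list includes Gm2a, whose product is an activator protein and not a hydrolase. Of the list 26.1% were called, beside 14.9% of all genes. Hyal1, a hyaluronidase, had 9.61, 9.61 and 9.30 on the basal arrays, against 8.28, 8.55 and 8.34 on the non-basal arrays, a difference of 1.12 ± 0.122 (SE; limma adjusted p = 0.00389). Gm2a, the ganglioside activator protein gene, was lower at -1.39 ± 0.196 (SE; limma adjusted p = 0.00781), and both calls held in all 6 fits with 1 array left out. Galc, Acp2, Manba and Ppt1 were lower at -0.73, -0.81, -0.99 and -0.58, with limma adjusted p of 0.0269 to 0.0453, and each passed in 1 of 6 fits. The number lower was 1 when 1 of basal replicates 1 and 2 or of non-basal replicates 2 and 3 was left out.

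Of 16 genes listed as lysosomal membrane proteins 0 were higher, 3 were lower and 13 missed the threshold (list median -0.18 on the log2 scale). The list includes Npc2, whose product is a soluble lysosomal protein. Of the list 18.8% were called, beside 14.9% of all genes. At an unadjusted p under 0.05 by limma 2 were higher and 6 lower. Of all genes, 16.1% passed that threshold as higher and 13.9% as lower. Ostm1, Slc17a5 and Laptm4b had differences of -0.41, -0.68 and -0.50, with limma adjusted p of 0.0259, 0.0373 and 0.0383. Lamp1, a widely used marker of lysosomes, had a difference of 0.27 ± 0.0767 (SE; limma adjusted p = 0.0721). The number lower was 0 when either of basal replicates 1 and 2 or non-basal replicate 2 was left out. It was 1 without non-basal replicate 1, when 1 gene was higher, and 2 in the absence of non-basal replicate 3.

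**Figure D5:**
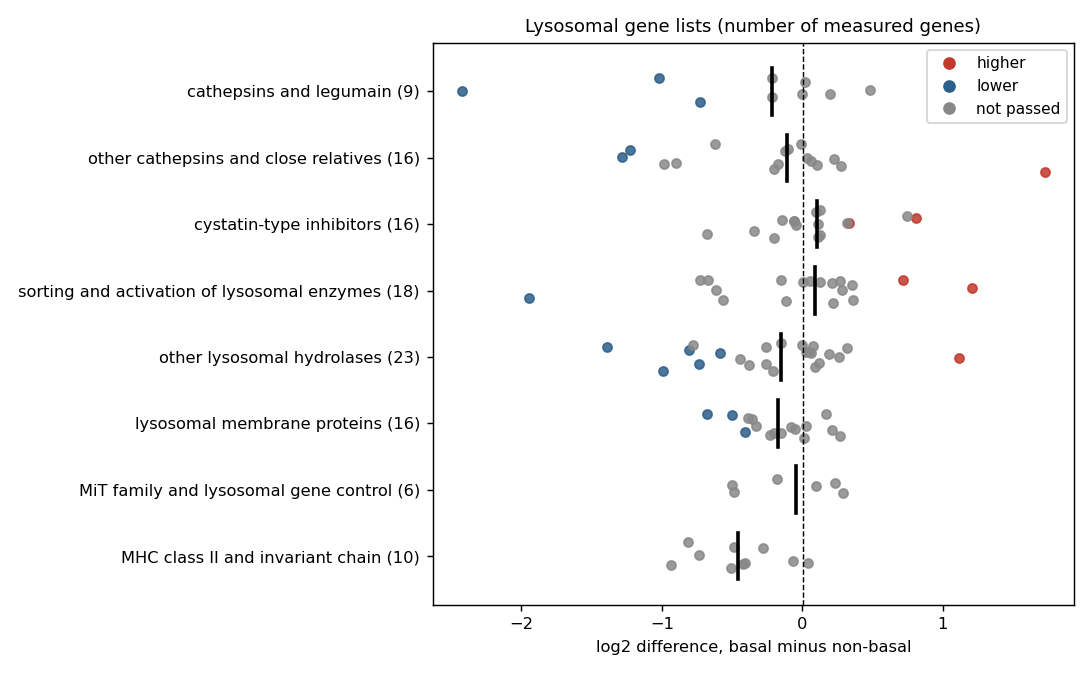
Log2 difference, basal minus non-basal, of each measured gene (points, coloured by the limma call) in the members' list and 7 related lists, with a black bar at the list median and a dashed line at the median of all genes. The list medians run from -0.46 for MHC class II genes to 0.10 for cystatin-type inhibitors, and Ctsk lies at -2.43.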

How the data were processed

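The deposited log2 values were produced by the authors with RMA in Affymetrix Expression Console from RaGene 2.0 ST arrays, per the submitters' processing notes. The version, probe set library and genome build are not given in the sources used here. RMA forces the arrays to a common distribution (array medians 6.63 to 6.70) and shrinks differences at both ends of the scale. Levels were not compared between genes, and the number of arrays limits the precision.

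Of 36685 probe sets 18511 had 1 gene symbol in the platform annotation. Each of 18166 genes kept its brightest probe set, by the mean of all 6 arrays, and no dim probe set was removed. Groups came from the sample titles. Basal minus non-basal differences were fitted in limma 3.58.1 (lmFit, eBayes; R 4.3.3), two-sided and without a replicate block, with Benjamini-Hochberg adjustment over all genes. No pair of arrays within a fraction held the same data (SD of differences at least 0.301). The procedure was also run on simulated data with independent noise for each gene and array. That setting does not cover shifts shared by many genes on an array.

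The members, the 16 other gene lists, the tests and the motifs were chosen with earlier results of these data known. Named genes were all members, called relatives of the cathepsins, up to 4 genes with the smallest p of each related list and the 3 nearest profiles of each called member. Manba, Ppt1, Tp63, Krt14, Ctsw, Ctse and Cd74 were named after their values were seen. The alternatives tried were the replicate block, 2 other scalings (quantile and median), a floor of 5 or 7 on the group mean, a robust trended variance, weighting of arrays, averaging of a gene's probe sets, testing of all probe sets, other thresholds, and arrays left out. RefSeq sequences of GRCr8 were used for upstream regions only.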

Additional observations from a re-analysis of the deposited data

How the results depend on the processing

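Of the members, 3 were lower and 0 higher with the replicate block, which moved the counts over all genes to 982 higher and 1027 lower, against 1401 and 1297 without it. The block also left 1 gene of the hydrolase list and 0 of the lysosomal membrane protein list lower, against 5 and 3 without it. Ostm1, Slc17a5 and Laptm4b thus lost their calls (limma adjusted p = 0.0696, 0.0568 and 0.0704). Of the cystatin-type genes 0 were higher and 1 lower with the block, against 2 and 0 without it. Same-numbered arrays hardly deviated together (correlations of 0.0278 to 0.0383), although each of the 6 arrays correlated best with the array of its own number, which is a hint from the data and not the design, and the labels give no shared animal, so the numbers were not taken as pairs. With array weights 1 member was higher (Ctsd) and 4 lower, and over all genes 2868 were higher and 2323 lower. Without both basal replicate 3 and non-basal replicate 1, 1 member was higher and 4 lower, and over all genes 2499 and 2124. At a threshold of 0.01, 1 member was lower, and over all genes 491 were higher and 556 lower. With 1 array left out, 1 to 3 members were lower and 0 higher, and over all genes 509 to 2068 were higher and 542 to 1607 lower. The Ctsa difference was -0.0455 after quantile normalization and ran from -0.008 to 0.0317 with 1 array left out. That of Ctsl was 0.0572 with array weights and 0.0864 without both arrays, and ran from -0.0489 to 0.061 with 1 array left out. The cause of these changes was not tested. The other alternatives kept the member counts at 3 and 0. With 3 arrays per fraction and no background measure in the deposited values, small differences and dim genes stay poorly resolved.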

Other observations

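MHC class II genes, whose invariant chain is a substrate of Ctss, had mostly negative differences that did not pass. In limma 0 of the 10 measured genes were called, beside 14.9% of all genes. At an unadjusted p under 0.05 by limma 1 was lower, a threshold that 13.9% of all genes passed as lower. The median log2 difference was -0.46, beside 0.00343 over all genes. Cd74, the invariant chain itself, had 12.51, 12.76 and 12.29 on the basal arrays, against 12.48, 13.33 and 13.23 on the non-basal arrays. Non-basal replicate 1 lay within the basal range, and without it 5 of the 10 genes were lower, Cd74 among them (-0.75, limma adjusted p = 0.0337). Over all 18166 genes, 1607 were lower in that fit. With the replicate block 2 of the 10 genes were lower, beside 1027 of all genes. The number was also 2 without both basal replicate 3 and non-basal replicate 1, beside 2124 of all genes. It was 0 when any single array but non-basal replicate 1 was left out. Ctss, in contrast to Cd74, was above every basal array on non-basal replicate 1.

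Genes of the MiT family and other genes listed for the control of lysosomal genes were also looked at. Of these 6 genes 0 passed in limma, beside 14.9% of all genes. At an unadjusted p under 0.05 by limma 2 were higher and 1 lower, a threshold that 30% of all genes passed in either direction. Tfeb had 7.60, 7.50 and 7.49 on the basal arrays, against 7.23, 7.37 and 7.12 on the non-basal arrays, with the basal arrays higher by 0.29 ± 0.0859 on the log2 scale (SE; limma adjusted p = 0.0785). Tfe3 and Mitf had differences of 0.23 and -0.50 (adjusted p = 0.132 and 0.139). Without non-basal replicate 1, 2 genes of this list were lower.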
